A study of Mus musculus with 3 samples.

Results

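Wnt ligands, their Frizzled receptors and the secreted antagonists of the pathway were followed in mouse embryonic fibroblasts (MEF) exposed to n-butylidenephthalide (BP), a compound from the root of Angelica sinensis. Members were every probe whose gene name in the scanner files was Wnt, Fzd, Sfrp or Dkk with a number, together with Frzb, Wif1, Lrp5, Lrp6, Ror1, Ror2, Axin2 and Lef1. This gave 45 genes on 55 probes, out of 35696 gene names on 55681 probes. There were 3 samples, all primary C57BL/6 MEF prepared from mid-gestation embryos after the head, legs and internal organs had been removed. One culture received no BP by its label and is called the control, although the study's text calls it a DMSO control. The other cultures received 10 µg/ml BP (BP10) or 40 µg/ml BP (BP40). The time of exposure is not given in the sources used here. Each culture was read on 1 Agilent array labelled with Cy3, so every ratio below compares 2 arrays, no p-value is given, and no spread between cultures was available.

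Wnt proteins are secreted, lipid-modified ligands that bind Frizzled receptors at the cell surface. With the co-receptors Lrp5 or Lrp6 they stabilise beta-catenin, which acts with factors of the TCF/LEF family on target genes, whereas with Ror1 or Ror2 they signal without it. Sfrp proteins, Frzb and Wif1 bind Wnt ligands outside the cell, and Dkk proteins block or tune the Lrp co-receptors. Axin2 is a target of beta-catenin whose product limits the pathway, and Lef1 is one of the nuclear factors. Fibroblasts of the embryonic mesenchyme are a known source of Wnt5a and of Sfrp and Dkk antagonists.

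The intensity is the scanner software's background-corrected brightness of a spot, which was not scaled between arrays. The log2 ratio of 2 arrays was taken after each array had been divided by the 75th percentile of its gene spots, which was an intensity of 1765 on the control, 1431 on BP10 and 1237 on BP40. A gene was called when this ratio reached 1 in either direction (2-fold) and either array had its probe well above background by the scanner software's flag. Where 1 array of a comparison lacked that flag, the ratio is a bound: the dim side was set to the probe's signal or to the dimmest flagged signal of that array, whichever was higher. A bound set by the probe's own signal is a plain reading and not a limit. The error after a ratio (±) is the spot error given by the scanner software, carried through to the ratio. It covers the reading of the spots and not the culture. The log2 ratios of different probes of a gene had a median SD of 0.29 at BP10 and 0.22 at BP40 against the control, and of 0.21 between the doses, over 4730 genes.

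The arrays themselves differed. The share of gene spots flagged as well above background was 81.7% for the control, 68.3% for BP10 and 69.1% for BP40. The control was scanned in a session of its own, so in any ratio to it the effects of BP and of scanning cannot be told apart. The scanner software had also divided 99.1% and 99.0% of the BP10 and BP40 spots by a correction for uneven brightness across the array, and 0% of the control spots. All 11 fibroblast markers were well above background on all 3 arrays, and their summed level relative to the 75th percentile was 1326 on the control, 938 on BP10 and 1056 on BP40. So were 8 of 8 macrophage markers, whose summed level ran from 29.9 on BP10 to 36.4 on the control. On the log2 scale the fibroblast markers had median ratios of -0.60 (BP10) and -0.67 (BP40), with 2 of 11 called down at each dose. Lum, a matrix proteoglycan, was the lowest of them, with -3.21 and -2.22. The macrophage markers had medians of -0.30 and 0.14, and 1 of 8 was called, Lyz2 (lysozyme), with 1.09 and 1.25. Of the epithelial markers 5 of 7 were well above background on all 3 arrays, of the endothelial 4 of 6 and of the skeletal muscle 5 of 7. The markers Epcam and Cdh1 (epithelium), Cdh5 and Tie1 (endothelium) and Myf5 (muscle) were well above background on no array. The part of other cell types in the ratios below was not tested. In these bulk samples, fewer cells of a type and less RNA per cell cannot be told apart.

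Of the 45 genes, 44 had a value on all 3 arrays. Wnt10a had none on BP10, where its only spot was an outlier by the scanner software. Its log2 ratio of BP40 to control was -0.36. Well above background on all 3 arrays were 33 genes, on some arrays 7, and on none 4, namely Wnt2, Wnt3, Wnt3a and Fzd10. Every member probe was printed as 1 spot. The plot of normalised intensity by gene shows that the members ran from near the floor of the arrays to far above the 75th percentile. Levels of different genes in it are not comparable, since each probe has its own response.

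**Figure D1:**
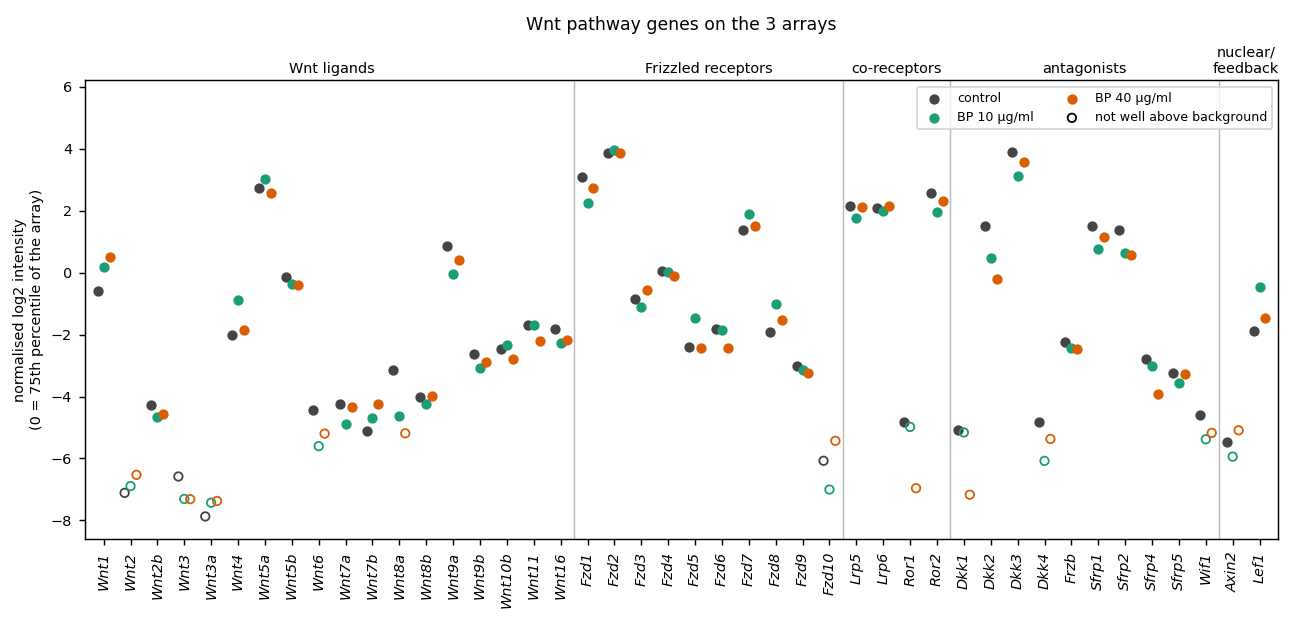
Normalised log2 intensity (y axis, 0 is the 75th percentile of each array) of the 44 genes with a value on all 3 arrays (x axis, by role), 1 point per array for the control (grey), BP10 (green) and BP40 (orange). Open points are not well above background. Wnt2, Wnt3, Wnt3a and Fzd10 have open points only.

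In BP10-treated MEF, 2 of 40 members that could be called were up-regulated against the control, Lef1 and Wnt4, and 2 were down-regulated, Dkk2 and Wnt8a. This is 5.0% each way. Across the whole array 3.2% of genes were called up and 12.3% down. In BP40-treated MEF, Wnt1 was the 1 gene called up (2.5% of 40, against 3.13% of all genes), and Dkk2, Sfrp4 and Wnt8a were called down (7.5%, against 12.1%). Between the doses, Lef1 was lower at BP40 than at BP10, 1 of 34 members or 2.94%, where 2.66% of all genes were called down. No member was called up at BP40 against BP10, where 2.44% of all genes were. The median log2 ratio over the 44 members was -0.23 at BP10 and -0.24 at BP40 against the control, and 0.08 for BP40 against BP10. Over all 35451 genes with a value it was -0.24, -0.12 and 0.07. Over the 33 members well above background on all arrays the medians were -0.22, -0.22 and -0.02. Over all genes well above background on all arrays they were -0.18, -0.06 and 0.10. Each of these shares rests on at most 3 genes and none of them was tested, so the description below is of individual genes.

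**Figure D2:**
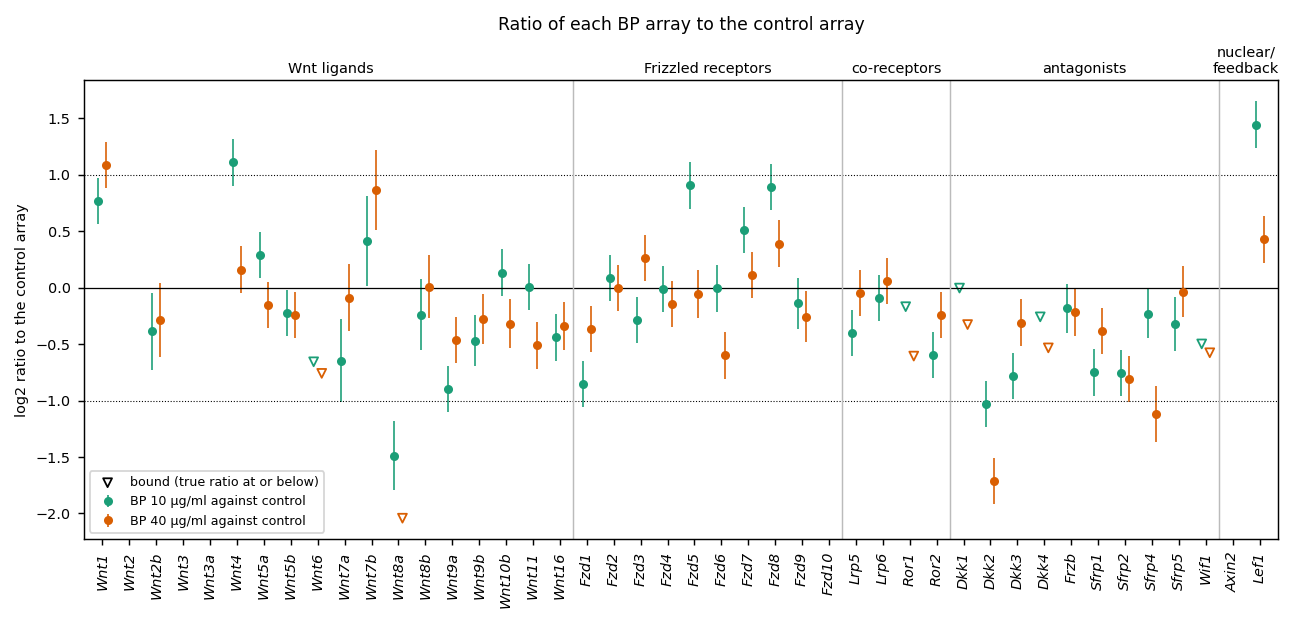
Log2 ratio to the control array (y axis) of each member (x axis, by role) at BP10 (green) and BP40 (orange), with the spot error as bars and dotted lines at the 2-fold threshold. Triangles are bounds, and genes without points have no measured ratio. Dkk2 is the lowest measured point at BP40, with -1.71, and Lef1 the highest at BP10, with 1.44.

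Among the secreted antagonists, Dkk2 had the largest measured decrease. Dkk2 encodes a Dickkopf protein that binds Lrp5 and Lrp6. Its intensity was 5035 in the control, 2000.4 in BP10 and 1078 in BP40. The control was highest and BP40 lowest. The log2 ratio was -1.03 ± 0.20 at BP10 and -1.71 ± 0.20 at BP40, a 2.04-fold and a 3.27-fold decrease, with -0.68 ± 0.20 between the doses. Few genes of this brightness were called, 4.18% at BP10 and 2.99% at BP40. The call at BP10 stood at the threshold. It ended, just short of the threshold, with the normexp background correction, and with -0.97 when the median ratio of genes of the same brightness was subtracted. The BP40 ratio lay between -1.67 and -1.78 in every alternative run.

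Sfrp4, which encodes a secreted Frizzled-related protein, was called down at BP40. Its intensity was 254 in the control, 176 in BP10 and 82.0 in BP40. BP40 was well below the other arrays, and the log2 ratio was -0.23 ± 0.22 at BP10, -1.12 ± 0.25 at BP40 and -0.89 ± 0.26 between the doses. At this lower brightness 28.5% of genes were called at BP40, and the call ended with quantile normalisation (-0.76), with normexp (-0.55) and after subtraction of the same-brightness median (-0.69).

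The bright antagonists Dkk3 and Sfrp1 were lower on both BP arrays without reaching the threshold. Dkk3 is a divergent member of the Dickkopf family, and Sfrp1 binds Wnt ligands. The intensity of Dkk3 was 26214 in the control, 12367 in BP10 and 14831 in BP40. Its log2 ratio was -0.78 ± 0.20 at BP10 and -0.31 ± 0.20 at BP40. Sfrp1 read 5053 in the control, 2434 in BP10 and 2711 in BP40, with log2 ratios of -0.75 ± 0.20 and -0.39 ± 0.20. Sfrp1 was called down at BP10 with normexp (-1.08) and with no correction for uneven brightness on any array (-1.11). For both genes the BP10 array was the lowest and the control the highest. Sfrp2, a close relative of Sfrp1 picked after its values were seen, read 4582, 2205 and 1837 in control, BP10 and BP40, with log2 ratios of -0.75 and -0.81.

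The remaining antagonists were dimmer. Frzb, also a secreted Wnt-binding protein, had log2 ratios of -0.18 and -0.22 at BP10 and BP40, and Sfrp5 had -0.32 and -0.04. Dkk1, Dkk4 and Wif1 were well above background on the control only. Their ratios are bounds between -0.00 and -0.50, apart from Dkk4 (-0.53) and Wif1 (-0.58) at BP40. Those 2 values come from the probes' own unflagged signals and are not limits. None was called, but Dkk1 was called up at BP10 with the same-brightness median subtracted. That call rests on a bound. The 7 antagonists well above background on all arrays were lower than the control 7 of 7 times at either dose, with medians on the log2 scale of -0.75 (BP10) and -0.39 (BP40). Of all genes well above background on all arrays, 65.3% and 55.5% were lower at these doses. The direction of the dimmer antagonists moved with the scaling. With quantile normalisation 4 of 7 were lower at BP10 and 5 of 7 at BP40, and against genes of the same brightness these counts were also 4 and 5. Dkk2, Dkk3, Sfrp1 and Sfrp2 made up the 4 at BP10 in both cases.

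**Figure D3:**
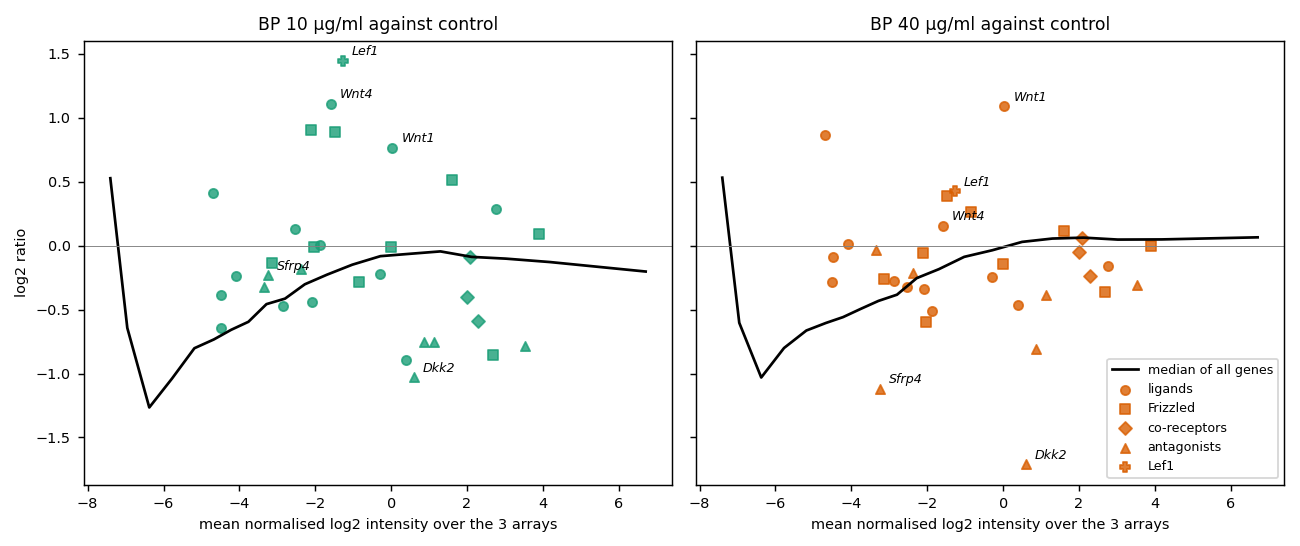
Log2 ratio of BP10 (left) and BP40 (right) to the control (y axis) against the mean normalised log2 intensity over the 3 arrays (x axis) for the 33 members well above background on all arrays, with symbols by role. The black line joins the medians of all genes in 20 classes of brightness. It runs down to -1.27 at BP10 and -1.03 at BP40 in dim genes, stands at 0.53 in the dimmest class and lies near 0 in bright ones, where Dkk2 falls well below it.

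The upstream sequence of Dkk2 is shown because this gene had the largest measured change at BP40, and that of Lef1 because it was called between the doses. The 250 bases before each start site were read from RefSeq promoters of build GRCm38.p6, both on the plus strand. Capitals mark the TCF/LEF core letters CTTTGA or CTTTGT on either strand, whose reverse complements are TCAAAG and ACAAAG. The Dkk2 window lies at chr3:132085042-132085291. Lef1 has 4 annotated start sites, and the windows of start 1 and start 4 lie at chr3:131110047-131110296 and chr3:131156044-131156293.
Dkk2: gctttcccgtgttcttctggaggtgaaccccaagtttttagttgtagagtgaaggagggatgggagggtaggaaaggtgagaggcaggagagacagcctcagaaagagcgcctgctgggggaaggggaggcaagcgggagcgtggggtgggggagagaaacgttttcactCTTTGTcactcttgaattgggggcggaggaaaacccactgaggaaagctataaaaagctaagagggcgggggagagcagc
Lef1, start 1: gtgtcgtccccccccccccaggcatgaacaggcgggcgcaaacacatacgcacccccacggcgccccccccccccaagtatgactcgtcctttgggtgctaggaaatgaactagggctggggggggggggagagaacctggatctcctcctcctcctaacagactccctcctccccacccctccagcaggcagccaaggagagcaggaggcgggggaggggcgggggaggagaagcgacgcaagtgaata
Lef1, start 4: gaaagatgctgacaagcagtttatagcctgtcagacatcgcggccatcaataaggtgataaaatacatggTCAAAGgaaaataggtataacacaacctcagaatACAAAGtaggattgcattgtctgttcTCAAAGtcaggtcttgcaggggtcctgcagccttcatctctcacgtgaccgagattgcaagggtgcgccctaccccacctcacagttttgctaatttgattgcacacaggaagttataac
Dkk2 held 1 match, starting 80 bases before the start site. Of the 4 Lef1 windows, those of starts 1, 2 and 3 held none, and that of start 4 held 3, starting 180, 146 and 120 bases before the start site. The windows of Wnt4 and Axin2 held none. Of 32851 RefSeq promoters of this length, 27.6% held at least 1 match (13.8% CTTTGA, 16.5% CTTTGT), and 11 of the 37 windows of the 31 members in the table did (29.7%). A match is a string of letters and not a shown binding site.

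Of the ligands, 18 had values on all arrays and 13 were well above background on all of them. The median log2 ratio of the 18 was -0.23 at BP10 and -0.26 at BP40, and that of the 13 was -0.22 and -0.24. Wnt4, a ligand needed for kidney and gonad development, was called up at BP10. Its intensity was 439 in the control, 768 in BP10 and 343 in BP40. BP10 stood alone above the other arrays, which differed by less. The log2 ratio was 1.11 ± 0.21 at BP10, a 2.16-fold increase, and 0.16 ± 0.21 at BP40. Of genes this bright, 16.8% were called at BP10. The ratio between the doses, -0.95 ± 0.21, stayed just inside the threshold, and it passed when arrays were scaled on probes well above background on all 3 or when the same-brightness median was subtracted.

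Wnt1, the classical ligand of the beta-catenin branch, read 1173 in the control, 1618 in BP10 and 1749 in BP40. Both BP arrays were above the control. The log2 ratio was 0.77 ± 0.20 at BP10 and 1.09 ± 0.20 at BP40, a 1.70-fold and a 2.13-fold increase. Of genes this bright, 5.92% were called at BP40. The other Wnt1 probe was far dimmer, with 53.9, 51.9 and 60.7, and gave 0.25 and 0.68. The call at BP40 ended with the median of both probes (0.89), with normexp (0.90), with the control corrected for uneven brightness like the other arrays (0.78) and without that correction on any array (0.94). Wnt10b, the neighbour of Wnt1 on chromosome 15, had log2 ratios of 0.13 and -0.32.

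Wnt8a, a ligand of the early embryo, was dim on every array, with 199 in the control, 57.6 in BP10 and 33.9 in BP40. It was well above background on the control and BP10. The log2 ratio was -1.49 ± 0.30 at BP10. At BP40 the gene's own unflagged signal gave -2.04 ± 0.38, a 4.12-fold decrease that is not a limit. At this brightness 39.9% of genes were called at BP10 and 34.4% at BP40. With normexp the ratios were -0.69 and -0.75 and neither call stood. After subtraction of the same-brightness median the BP10 ratio was -0.83, short of the threshold. A filter that requires both arrays above background leaves no BP40 ratio. The related Wnt8b gave different answers by probe. The probe used had log2 ratios of -0.24 at BP10 and 0.01 at BP40, and the other probe, with an intensity of 180 in the control, 51.8 in BP10 and 47.6 in BP40, had -1.49 and -1.40.

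Wnt5a, the main ligand of the branch without beta-catenin, was the brightest ligand probe. It read 11709 in the control, 11602 in BP10 and 7358 in BP40. After scaling, the log2 ratio was 0.29 ± 0.20 at BP10, -0.16 ± 0.20 at BP40 and -0.45 ± 0.20 between the doses, so neither dose was 2-fold from the control. Among the ligands that were not called, Wnt9a had the lowest ratio at BP10 of those well above background on all arrays, -0.90, with -0.46 at BP40. Wnt7b had the highest at BP40 among them, 0.86 ± 0.36, with 0.41 ± 0.40 at BP10. Its value moved widely with the processing. It was called up at BP10 and BP40 with quantile normalisation (1.09 and 1.496) and with the same-brightness median subtracted (1.15 and 1.47), and was -0.00 and 0.45 with the control corrected for uneven brightness. Wnt9a and Wnt7b were named here after their values were seen. Wnt6 was well above background on the control only. The others, Wnt2b, Wnt5b, Wnt7a, Wnt9b, Wnt10b, Wnt11 and Wnt16, had log2 ratios between -0.65 and 0.13 at BP10 and between -0.51 and -0.09 at BP40.

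None of the 9 Frizzled receptors that could be called passed the threshold in any comparison, where 3.2% of all genes were called up and 12.3% down at BP10. Fzd10 was well above background on no array. The median log2 ratio of the 10 receptors was -0.01 at BP10 and -0.03 at BP40. Fzd2, a receptor of the Fzd1, Fzd2 and Fzd7 subfamily, was the brightest on the control array, with 25684 in the control, 22134 in BP10 and 17981 in BP40, and log2 ratios of 0.09 ± 0.20 and -0.00 ± 0.20. Fzd1 read 15001 in the control, 6724 in BP10 and 8169 in BP40. BP10 was its lowest array, with a log2 ratio of -0.86 ± 0.20, and BP40 gave -0.36 ± 0.20. With the control corrected for uneven brightness Fzd1 was called down at BP10 (-1.06). Fzd7 read 4613, 5340 and 3500 in control, BP10 and BP40 and had ratios of 0.51 ± 0.20 and 0.11 ± 0.20. Fzd5 and Fzd8, whose ratios at BP10 were 0.91 and 0.89, lay nearest to the threshold on the upper side. They passed it with quantile normalisation (1.11 and 1.05) and with the same-brightness median subtracted (1.21 and 1.12), and Fzd5 also with the control corrected for uneven brightness (1.03). Between the doses Fzd5 had -0.96, and it was called down with scaling on probes well above background on all arrays and with the same-brightness median subtracted. At BP40 they were -0.06 and 0.39. Fzd3, Fzd4, Fzd6 and Fzd9 had ratios between -0.29 and -0.01 at BP10 and between -0.60 and 0.26 at BP40.

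Several Frizzled genes had a probe on each side of 0. For Fzd5 the other probe gave -0.74 at BP10 against 0.91 for the probe used, a gap of 1.65. For Fzd7 the other probe gave -0.72 against 0.51, and for Fzd2 -0.82 against 0.09. These gaps exceeded the usual spread between probes of a gene, so the direction of these receptors at BP10 depends on the probe. Of the 10 members with more than 1 probe, 8 had every probe well above background on all arrays, and they are shown in the plot of paired probes. At BP10 both probes had the same sign for Lef1, Wnt1, Wnt16 and Wnt8b.

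**Figure D4:**
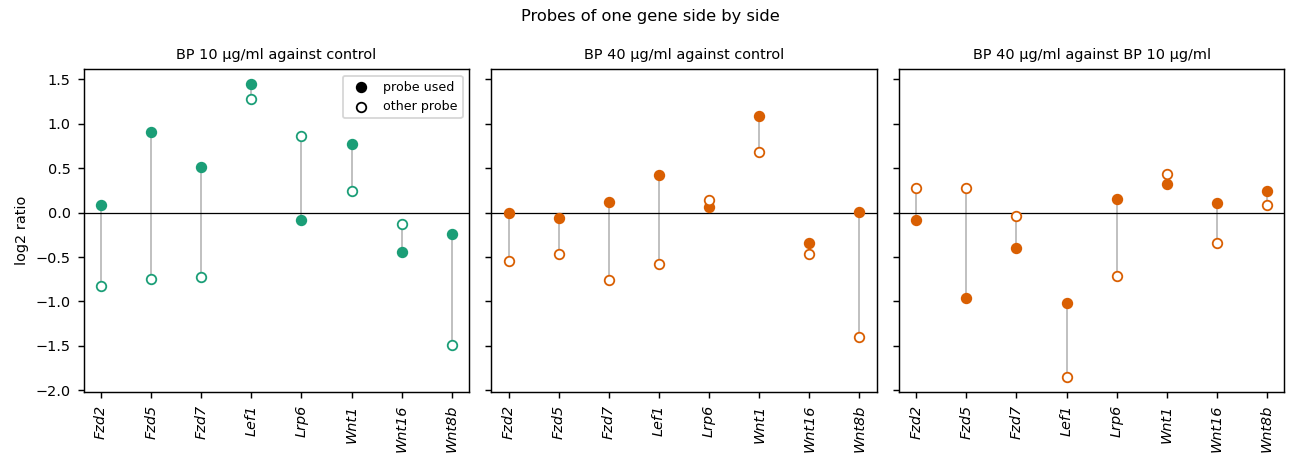
Log2 ratios (y axis) of the 8 members with more than 1 probe, all well above background on every array (x axis), in panels for BP10 and BP40 over the control and for BP40 over BP10. Filled points are the probe used for the gene and open points the other probe. The Fzd5 probes lie 1.65 apart at BP10, and both Lef1 probes lie above 1 there.

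The co-receptors Lrp5, Lrp6 and Ror2 were within 2-fold of the control at both doses, and Ror1 was too dim for a measured ratio. Lrp5 read 7851 in the control, 4810.1 in BP10 and 5323 in BP40. Its log2 ratios were -0.40 ± 0.20 and -0.05 ± 0.20. Lrp6 read 7497, 5718 and 5472, with -0.09 ± 0.20 and 0.06 ± 0.20, although its other probe gave 0.86 at BP10. Ror2, a receptor of Wnt5a, read 10357 in the control, 5568 in BP10 and 6152 in BP40, with -0.59 ± 0.20 and -0.24 ± 0.20. For Lrp5 and Ror2 the BP10 array was lowest. Ror1 was dim, with 62.8, 45.3 and 9.95, and well above background on the control only. At BP10 its own unflagged signal gave -0.17 ± 0.41, which is not a limit. That value was 0.47 with quantile normalisation and 0.15 with normexp. It was -0.33 with the control corrected for uneven brightness and -0.26 without that correction on any array. The bound at BP40 was a 1.52-fold decrease. The other Ror1 probe, well above background on no array, read 2.19 at BP10 and 0.25 at BP40.

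Lef1 was the member with the largest increase at BP10, and it differed between the doses. Its intensity was 473 in the control, 1044 in BP10 and 446 in BP40. The control and BP40 were alike and BP10 stood above both. The log2 ratio was 1.44 ± 0.21 at BP10, a 2.72-fold increase, 0.43 ± 0.21 at BP40 and -1.02 ± 0.21 between the doses, whose arrays were scanned in 1 session. Of genes this bright, 11.0% were called at BP10 and 3.10% between the doses. The other Lef1 probe read 244, 478 and 114 in control, BP10 and BP40, with 1.27 at BP10 and -1.85 between the doses. At BP40 the probes differed in sign, 0.43 against -0.58. The call at BP10 held in all scalings, corrections and probe summaries run, with ratios from 1.12 to 1.59. The call between the doses ended with quantile normalisation (-0.96), with normexp (-0.82) and without the correction for uneven brightness (-0.93). Axin2 was near background, with 39.5 in the control, 23.3 in BP10 and 36.3 in BP40. It was well above background on the control only and gave no usable fold at either dose. With the same-brightness median subtracted, Axin2 was called up at BP40 (1.19), where it lacked the flag. Its other probe, well above background on no array, read -0.79 at BP10 and -1.23 at BP40, against -0.46 and 0.39 for the probe used.

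The wider pathway was described with 4 lists. Of 21 genes for Wnt secretion and extracellular modulation, 3 were called down at BP10 and 4 at BP40, and 0 up, of 20 that could be called, where 12.3% and 12.1% of all genes were called down and 3.2% and 3.13% up. Their median log2 ratios were -0.33 and -0.36. Lgr5, a receptor of R-spondins, read 3887 in the control, 1968 in BP10 and 748 in BP40, with log2 ratios of -0.68 and -1.86. Notum, a secreted enzyme that removes the lipid from Wnt ligands, read 17929, 11712 and 5577, with -0.31 and -1.17. For both genes the intensity was lowest at BP40. Cthrc1, a secreted glycoprotein, had -0.45 and -1.09, and Gpc3, a cell surface proteoglycan, -1.22 and -0.36. The ratios of Rspo4, an R-spondin, were bounds of -1.51 and -1.83. Sostdc1, an antagonist of Wnt and BMP ligands, had -1.03 and -0.36, and its other probe -0.49 and -0.83.

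None of the 25 genes of intracellular signalling, which include the Dishevelled proteins, the Axin1 and Apc scaffold, the kinases and beta-catenin itself, was called against the control at either dose. Their medians were -0.20 and 0.13. Of all genes, 3.2% and 3.13% were called up and 12.3% and 12.1% down at BP10 and BP40. Few bright genes were called, with 1.41% and 1.19% at the brightness of beta-catenin. Of 19 genes of planar cell polarity and signalling without beta-catenin, 1 was called in each direction at each dose, beside the same shares of all genes. Camk2a, a calcium-dependent kinase, had 1.24 and 1.32, and its other probe 0.26 and 0.09. Vangl2, a core polarity protein, had -1.63 at BP10 and -0.46 at BP40, and its other probes gave -0.38 and -0.48 at BP10. Camk2b had -0.75 and -1.09, and its other probe -0.33 and 0.04. Celsr2, named after its values were seen, was not called, with -0.98 at both doses. Its other probe gave -1.62 and -1.60. Of 17 transcriptional targets of beta-catenin, 1 of 16 that could be called was up at BP10 and 2 of 15 down at BP40, where 3.2% and 12.1% of all genes were called in these directions, with medians of -0.04 and -0.32. The gene called up was T (brachyury), a mesoderm factor outside the rule for named genes. It was well above background on BP10 only, with a bound of 6.62-fold above the control. Msx1, a homeobox factor, had -0.83 and -1.16. Outside the rule for named genes, Ccn5 had 0.11 and -1.12 and Jag1, a Notch ligand, had 0.75 and -0.65. For BP40 against BP10, 3 of 15 targets were called down and 0 up, with a median of -0.20. Of the secretion list 1 of 16 was called up and 1 down. Of the polarity list 1 of 19 was called up and 0 down, and of the intracellular list 0 of 24. Across all genes 2.44% were called up and 2.66% down between the doses. None of these shares was tested.

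**Figure D5:**
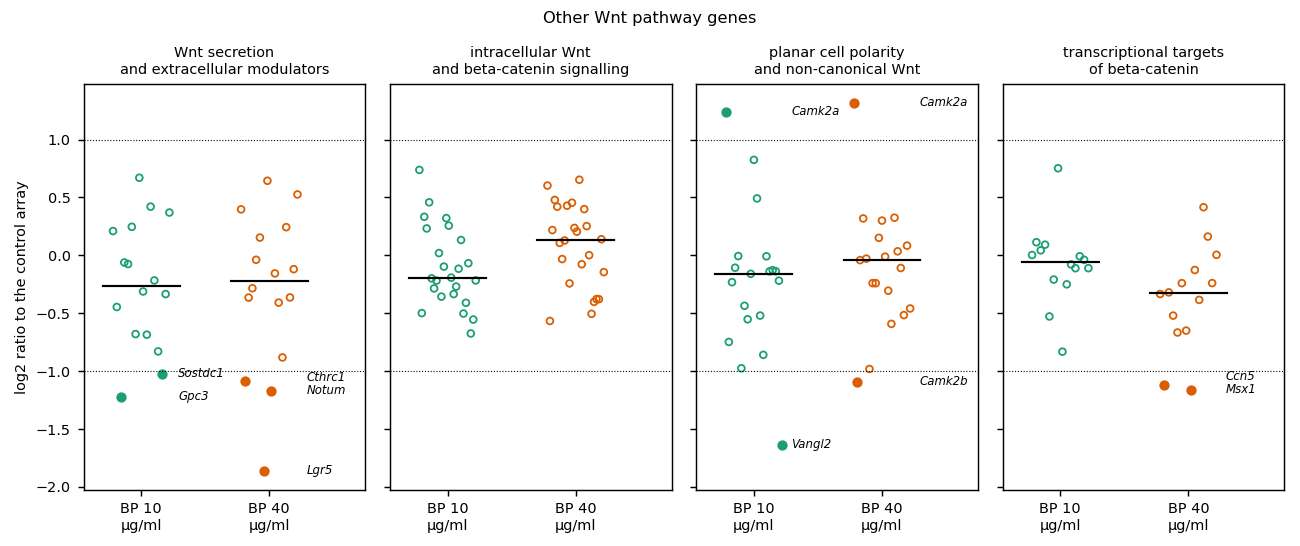
Log2 ratio to the control (y axis) at BP10 (green) and BP40 (orange) for the genes of 4 Wnt pathway lists that were well above background on all 3 arrays. Filled, named points were called, dotted lines mark the 2-fold threshold and black bars the medians of the points drawn. Lgr5 is the lowest point of its list at BP40, with -1.86, and the list of intracellular signalling has no filled point.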

How the data were processed

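Total RNA of 3 MEF cultures was labelled and hybridised by the study's authors, who deposited the scanner output of Feature Extraction 10.5.1.1. Its processed intensity is background-subtracted, with a correction for uneven brightness (a smooth signal across the array) applied on BP10 and BP40 only. The deposited series table repeats these intensities (100% of spots, relative tolerance 0.0001). The genome build of the file coordinates is not given in the sources used here, and they were not mixed with RefSeq GRCm38.

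From these values, spots flagged as outliers were dropped, values were put on the log2 scale, and each array's 75th percentile of gene spots was subtracted. A gene was represented by its probe with the most arrays well above background, ties going to the brightest, which left 35451 genes with a value on every array. Members were named by the files. Of 55 member probes, 53 matched a RefSeq accession and 0 of these differed in name, and 54 carried the same name in all 3 files. The exception was the probe used for Lef1, which carried a transcript identifier in place of the gene name on the control. This Lef1 probe also matched no RefSeq accession. Other genes were named by RefSeq, or else by the BP40 file.

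Values in every sample are given for each member called, the 10 members with the highest control signal, and Axin2, Lef1, Lrp5, Lrp6, Ror1 and Ror2; genes of other lists are named where called against the control with one direction at both doses. The lists of the wider pathway and the markers were written from general knowledge, and members and lists were chosen with earlier results of these data known. The 7 marker lists were fibroblast (0 called up and 2 down at BP10, 0 and 2 at BP40), macrophage (1 and 0, 1 and 0), epithelial (0 and 1, 0 and 1), endothelial (0 and 0, 0 and 1), skeletal muscle (0 and 1, 0 and 2), cartilage and bone (0 and 2, 0 and 2) and neural (2 and 0, 1 and 1).

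Python 3.11.15, numpy 2.4.6 and pandas 2.3.3 were used, with R 4.3.3 and limma 3.58.1 for quantile normalisation and normexp (offset 50). Alternatives were other scalings and backgrounds, thresholds of 1.5-fold and 3-fold, no filter or a filter on both arrays, the median of all probes, the series table, and subtraction of the median ratio in 20 brightness classes. Both alternatives on the correction for uneven brightness were chosen after seeing the data. Tested on simulated data (35451 genes, 200 changed by a log2 of 2, noise SD 0.25), the calling step recovered 200 in each comparison. It called 3 unchanged genes for BP10 and 0 for BP40 over the control, and 1 for BP40 over BP10. The changed genes were brighter ones, well above background on both arrays, and their change lay far past the threshold of 1, so recovery was near certain. The noise was the same at every brightness and held no shift between arrays, so these counts are no error rate for the real arrays.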

Additional observations from a re-analysis of the deposited data

How the results depend on the processing

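No paired analysis was possible because only 1 array was made for a condition, and for the same reason no replicate could be left out. Precision is limited by this number of arrays. The number of members called was 4 at BP10, 4 at BP40 and 1 for BP40 against BP10. At 1.5-fold it was 15, 9 and 6, and at 3-fold 0, 2 and 0. With quantile normalisation it was 7 at BP10 and 0 for BP40 against BP10, and with normexp 1 at BP40 and 0 for BP40 against BP10. For BP40 against BP10 it was 3 with scaling on probes well above background on all arrays, 4 with no filter on dim probes, 0 with no correction for uneven brightness and 3 with the same-brightness median subtracted. The median log2 ratio of members, -0.23 at BP10 and -0.24 at BP40, was 0.0462 and -0.0253 with quantile normalisation, -0.0195 and -0.00547 with normexp, and 0.13 and -0.0415 with the same-brightness median subtracted.

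Of all called genes, 20.7% at BP10 and 20.5% at BP40 were up. This share was 50.2% and 51.4% with quantile normalisation, 31.5% and 43.9% with normexp, and 66.9% and 59.3% with the same-brightness median subtracted. The balance of up and down among called genes thus rests on these settings, as does the direction of small ratios. These settings moved the median of all genes at BP10 from -0.24 to -0.05, -0.09 and 0, in that order. With the control corrected for uneven brightness like the other arrays, the log2 ratios of the 33 members well above background on all arrays moved by -0.42 to 0.25, and the SD between spots of a probe on the control rose from 0.11 to 0.18. No member called above was called in the opposite direction by any alternative. The median of members at BP10 did change sign, to 0.0462 with quantile normalisation and 0.13 with the same-brightness median subtracted. With that subtraction 6 members were called up at BP10 (Dkk1, Fzd5, Fzd8, Lef1, Wnt4 and Wnt7b) and 0 down, in place of 2 and 2. Of the values for single genes, 68 of 81 moved by less than the SD between probes of a gene. This count includes values that could not move, from the series table and from the median of all probes for genes with a single probe. Dim members were limited by signal over background. The cause of each change was not tested.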
